A study of Mus musculus with 6 samples.

Results

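SINE repeats, the short interspersed retroelements of the mouse genome, were followed by name in 3 PF-nSene and 3 PF-Quie libraries. A name entered when it began with B1, PB1, B2_, B3, B4, ID, RSINE or MIR and had at least 30 counts summed over the 6 libraries. Of the 4261 names in the repeat table, 33 matched and 32 had enough counts, and MIR1_Amn, listed at 0, fell out. They were read as 5 families: 15 B1 names (B1 and PB1), 5 B2 names (B2 and B3), 4 B4 names (B4, B4A, RSINE1 and ID_B1), 4 ID names and 4 MIR names. The cells were primary pulmonary fibroblasts of mouse, in both groups grown at 5% oxygen with 10% serum. PF-nSene cells were labelled senescent after Nutlin 3a, which keeps the ubiquitin ligase Mdm2 from p53. Per the labels' protocols they had 16 hours of RO3306, a Cdk1 inhibitor, 48 hours of Nutlin 3a and then 100 nM BI-2536, a Plk1 inhibitor aimed at cells that still divide, with 12 days in total. PF-Quie cells were labelled quiescent. Their samples carry the same protocol text, and the sources used here do not give what made them quiescent. The labels do not say whether replicates came from separate cultures or animals, so the p-values below rest on a spread between samples that may be technical.

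SINEs are copied into the genome through an RNA intermediate by the enzymes of longer LINE elements. B1, B2, B4 and ID are rodent families that use the machinery of the LINE L1, whereas MIR is an ancient family shared across mammals that went with the LINE L2. A SINE with an intact internal promoter can be transcribed by RNA polymerase III, but most copies lie inside introns, untranslated regions or flanks of genes and are read as part of polymerase II transcripts. Counts per name do not tell these sources apart. In bulk RNA, fewer cells with a transcript and less of it per cell cannot be told apart either.

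The families go back to a few small RNAs. B1 descends from 7SL RNA, the RNA of the signal recognition particle, ID amplified from the BC1 RNA gene, which itself derives from a tRNA, and B2 and MIR begin with a tRNA-derived head. B4 joins an ID-like part to a B1-like part. The Bc1 gene is shown here as the source of the ID family, from the GENCODE M21 transcripts on GRCm38. It is a noncoding gene of 168 bases at chr7:144914470-144914637 on the plus strand. Capitals mark the A box and B box of the internal polymerase III promoter, found by a loose A box motif (T, G, A and G with 1, 3 and 3 free bases between them) and by the B box motif GTTCNNNCC.
Bc1: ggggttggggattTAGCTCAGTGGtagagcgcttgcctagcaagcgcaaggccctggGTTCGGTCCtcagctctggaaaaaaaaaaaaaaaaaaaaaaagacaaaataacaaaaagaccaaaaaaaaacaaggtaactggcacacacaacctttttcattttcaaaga
Bc1 holds the A box at bases 14 to 24 and the B box at bases 58 to 66, both before the run of 23 A at bases 77 to 99. Both motifs are short: searched on both strands, the A box motif was in 61.5% and the B box motif in 8.02% of the 168-base promoter windows of 32851 genes. A match is a description of the letters and not a measured promoter.

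The gene table held 93736593 to 109706025 counts per library, of which 18219831 to 21386546 lay outside the rows Rn45s, Lars2 and Mir6236, which collect ribosomal reads. The repeat table held 244983845 to 291065749 counts per library, more than the gene table. Its 2 ribosomal RNA names took 97.5% to 98.0% of them, and 5860605 to 7247914 counts lay outside these names. Levels are CPM, the usual depth-scaled counts, here relative to the TMM-adjusted gene total with the ribosomal rows included. Of the 12 fibroblast markers all passed the filter on low counts, with summed levels of 4349 to 4803 CPM in PF-nSene and 5014 to 5165 CPM in PF-Quie. The 6 epithelial markers summed to 0.0894 to 0.155 CPM in PF-nSene and 0.169 to 0.295 CPM in PF-Quie, the 4 endothelial markers to 3.15 to 4.66 and 4.89 to 5.50 CPM, and the 6 blood and immune markers to 1.31 to 1.89 and 0.599 to 0.802 CPM, in the same order of groups. Cd3e, which marks T cells, was listed at 0 in all 6 libraries. The sums hide members that went both ways. Of the 12 fibroblast markers, 5 were called higher in PF-nSene and 5 lower, where 36.7% of all tested genes were higher and 37.8% lower. Of 3 tested endothelial markers, Cdh5 was higher (log2 fold change 2.32), Tek was lower (-2.67) and Kdr was not called.

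SINE counts were lower in PF-nSene than in PF-Quie fibroblasts when libraries were scaled by their genes, in all 5 families. Most other repeat names were lower too, 735 of 1242 tested. This holds for names and not for all summed counts: the L1 sum was higher in PF-nSene (log2 difference 0.25). The 32 names together gave 817977, 626016 and 948163 counts in PF-nSene libraries 1 to 3, and 1202685, 1277243 and 1100031 in PF-Quie libraries 1 to 3. That was 12.2% ± 1.39 of the repeat counts outside ribosomal RNA in PF-nSene and 19.5% ± 0.635 in PF-Quie (SD, n = 3 each). This share also moves with the other names counted. Among these, 7SLRNA had 751638, 713936 and 877969 counts in PF-nSene and 461041, 490605 and 451147 in PF-Quie. On the CPM scale the SINE sum was 8194, 6995 and 9214 in PF-nSene and 11314, 10771 and 10379 in PF-Quie, 25.3% lower in PF-nSene, and the groups did not overlap. The difference of the mean log2 sums was -0.42 (standard error 0.121, exact two-sided permutation p = 0.1, the smallest that 3 against 3 libraries can give).

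The direction depends on the scaling. edgeR's quasi-likelihood test with gene-table TMM (adjusted p under 0.05 over all repeat names) called 28 of the 32 names lower, 0 higher and 4 neither, whereas with TMM factors of the repeat table itself it called 12 higher, 1 lower and 19 neither. In the first fit, 69.4% of all 1274 tested names were called, 59.9% lower and 9.5% higher, and in the second 54.2% of 1281 were called, 25.4% lower and 28.7% higher. The repeat-table scaling adds 0.50 to each log2 fold change. The median log2 fold change of the 32 names was -0.40 and that of all tested names -0.50 under gene-table scaling, against 0.10 and -0.01 under repeat-table scaling. All 32 passed the filter on low counts. In CPM, 29 names had all PF-nSene libraries below all PF-Quie libraries and 3 overlapped (B1_Mus1, B1_Mus2 and B2_Mm1a), where 64.1% of all tested names were wholly below and 11.7% wholly above.

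**Figure D1:**
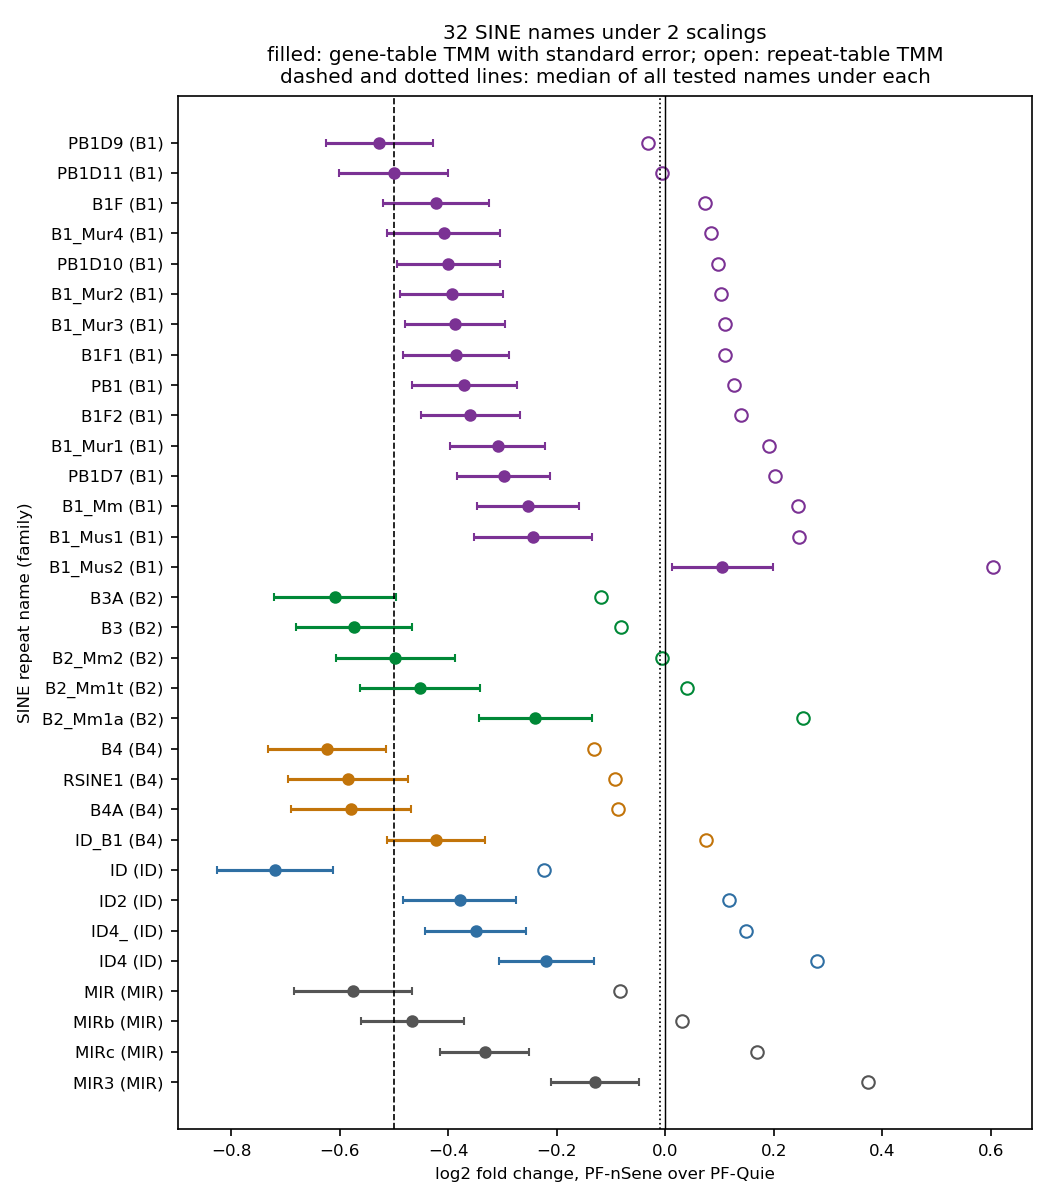
Log2 fold change of each of the 32 SINE names, PF-nSene over PF-Quie, by family. Filled points are under gene-table TMM with their standard errors and open points under repeat-table TMM; the dashed and dotted lines are the medians of all tested repeat names under each, -0.50 and -0.01. Under gene-table scaling 28 names were called lower, and under repeat-table scaling the whole set sits 0.50 to the right, with B1_Mus2 farthest to the right and ID farthest to the left.

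The libraries differed in a way shared by all SINE names. Within PF-nSene, library 2 was the lowest and library 3 the highest for all 32 names, by a median of -0.20 and 0.18 on the log2 scale from the group mean. Within PF-Quie, library 1 was the highest and library 3 the lowest for all 32, by 0.06 and -0.06. The ribosomal rows took 81.1%, 82.8% and 80.5% of the gene counts in PF-nSene libraries 1 to 3 and 80.0%, 79.8% and 81.5% in PF-Quie libraries 1 to 3, so the library lowest in SINE counts had the largest ribosomal share within each group. The part of that share in the SINE values was not tested. With the ribosomal rows left out of the TMM scaling, log2 fold changes moved by -0.0028.

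Under gene-table scaling the B2 and B4 sums had the lowest log2 differences of the 5 families and B1 the highest, all of them negative. Repeat-table scaling adds 0.50 to each, which kept the order but made those of B1, ID and MIR positive. B1 summed to 3687, 3205 and 4158 CPM in PF-nSene and 4714, 4511 and 4357 CPM in PF-Quie, 19.1% lower (log2 difference -0.31, standard error 0.113). B2 summed to 1628, 1339 and 1862 CPM in PF-nSene and 2481, 2331 and 2246 CPM in PF-Quie, 32.1% lower (-0.56, standard error 0.144). B4 summed to 1794, 1501 and 2019 CPM in PF-nSene and 2690, 2548 and 2448 CPM in PF-Quie, 31.3% lower (-0.54, standard error 0.131). For each of these the lowest PF-Quie library was above the highest PF-nSene library, by the least for B1. ID, the family of BC1, summed to 359, 314 and 390 CPM in PF-nSene and 457, 446 and 426 CPM in PF-Quie, 20.3% lower (-0.33, standard error 0.0956). The ancient MIR family summed to 726, 637 and 786 CPM in PF-nSene and 973, 935 and 902 CPM in PF-Quie, 23.8% lower (-0.39, standard error 0.0935). Each of the 5 differences had an exact permutation p of 0.1, the smallest possible here. Under repeat-table scaling the differences were 0.20 for B1, 0.18 for ID and 0.11 for MIR, each with p = 0.1, and -0.06 for B2 and -0.04 for B4 with p = 0.3 and 0.2 (exact permutation test).

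**Figure D2:**
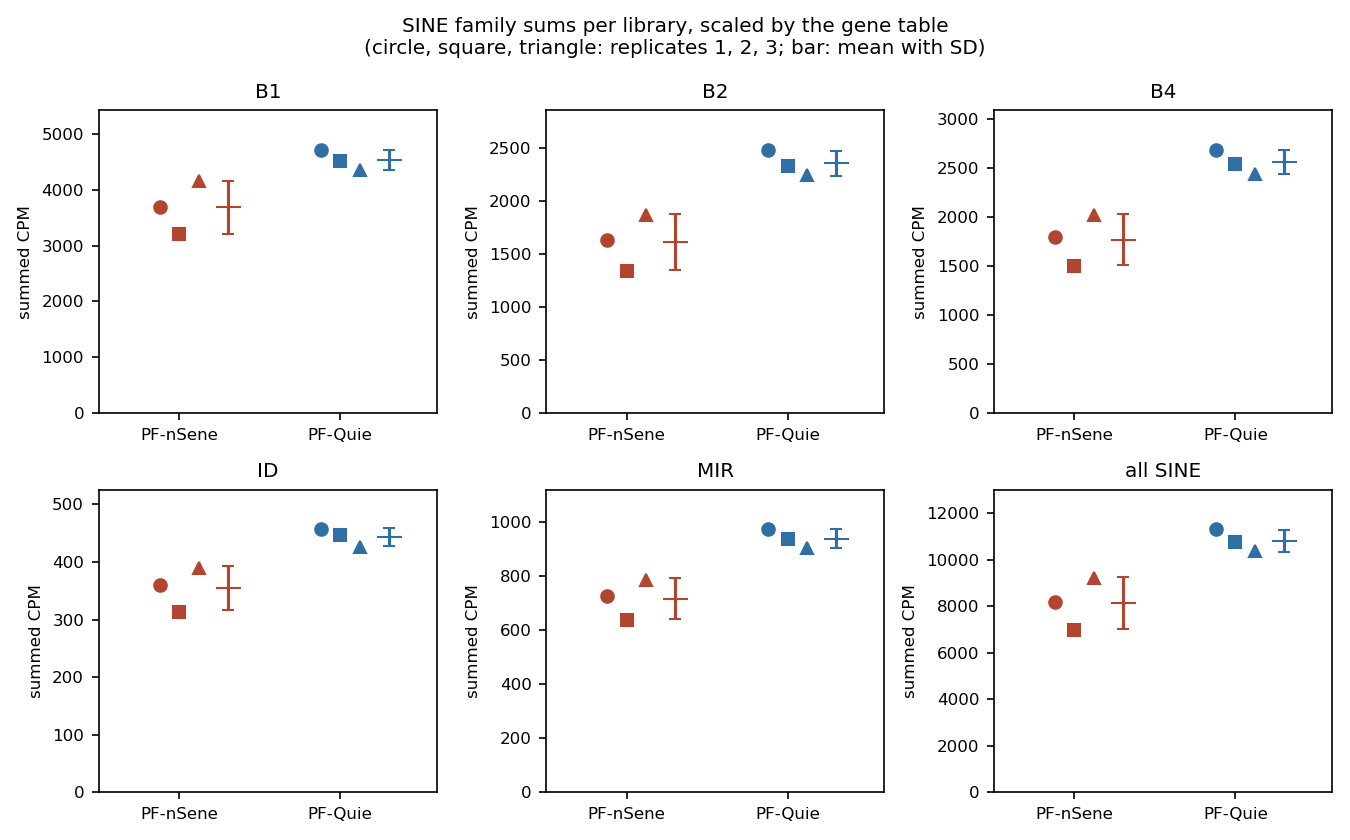
Summed CPM of each SINE family and of all 32 names in every library, PF-nSene left and PF-Quie right, with the gene-table scaling; circles, squares and triangles are replicates 1, 2 and 3, and the bar is the mean with its SD. In all 6 panels the 3 PF-nSene libraries lie below the 3 PF-Quie libraries, and PF-nSene replicate 2 is the lowest.

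Among the 15 B1 names, 13 were lower under gene-table scaling and 2 were not called, with a median log2 fold change of -0.39. The 2 that were not called, B1_Mus1 and B1_Mus2, are B1 subfamilies of the mouse lineage. B1_Mus1, the most abundant B1 name with 20.0% of the family's counts, had 743, 629 and 886 CPM in PF-nSene and 922, 896 and 857 CPM in PF-Quie (log2 fold change -0.24, standard error 0.109, edgeR adjusted p = 0.062). B1_Mus2 had 519, 480 and 601 CPM in PF-nSene and 529, 489 and 470 CPM in PF-Quie, so that the highest library of all 6 was senescent (0.10, standard error 0.094, edgeR adjusted p = 0.33). It was the one SINE name with a positive point estimate under gene-table scaling. B1_Mm, another young mouse B1, had 161, 140 and 176 CPM in PF-nSene and 198, 189 and 182 CPM in PF-Quie (-0.25, edgeR adjusted p = 0.03), and this call was lost without PF-nSene library 1 or PF-Quie library 1 or 2 (edgeR adjusted p 0.075 to 0.11).

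The older B1 names were all called lower under gene-table scaling. PB1 elements, the monomers from which later B1 arose, had a median log2 fold change of -0.40 over 5 names. The median was -0.39 for B1F over 3 names and -0.39 for B1_Mur, a murid set, over 4. The 2 B1_Mus names, at -0.24 and 0.10, had a median of -0.07, and B1_Mm was at -0.25. PB1D10, the most abundant of the old names, had 399, 343 and 441 CPM in PF-nSene and 541, 518 and 502 CPM in PF-Quie (-0.40, standard error 0.095, edgeR adjusted p = 0.0029). PB1D9 had the lowest log2 fold change of the B1 names, with 239, 203 and 267 CPM in PF-nSene and 355, 336 and 331 CPM in PF-Quie (-0.53, edgeR adjusted p = 0.00068). B1F had 227, 196 and 255 CPM in PF-nSene and 316, 304 and 289 CPM in PF-Quie (-0.42, edgeR adjusted p = 0.0025). In these 3 names, as in all the other older B1 names, every PF-nSene library was below every PF-Quie library. B1_Mur1 had 250, 215 and 261 CPM in PF-nSene and 311, 299 and 290 CPM in PF-Quie (-0.31, edgeR adjusted p = 0.0082), and PB1D7 had 184, 168 and 201 CPM in PF-nSene and 233, 227 and 219 CPM in PF-Quie (-0.30, edgeR adjusted p = 0.0087). The remaining 7, B1_Mur2, B1_Mur3, B1_Mur4, B1F1, B1F2, PB1 and PB1D11, had log2 fold changes between -0.50 and -0.36. Under repeat-table scaling 7 of the 15 B1 names were called higher, namely B1_Mus1 (0.25), B1_Mus2 (0.60, edgeR adjusted p = 7e-06), B1_Mm (0.24), PB1D7 (0.20), B1_Mur1 (0.19), B1F2 (0.14) and PB1 (0.13), and none was called lower.

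In the B2 family the old B3 names were the most abundant and 4 of 5 names were lower under gene-table scaling (median -0.50), while under repeat-table scaling 1 of 5 was higher and 0 lower. B3 held 47.4% of the family's counts and 9.94% of all SINE counts, the largest share of any SINE name. It had 763, 630 and 871 CPM in PF-nSene and 1182, 1113 and 1075 CPM in PF-Quie (-0.57, standard error 0.107, edgeR adjusted p = 0.00065). B3A had 377, 307 and 435 CPM in PF-nSene and 601, 562 and 544 CPM in PF-Quie (-0.61, standard error 0.113, edgeR adjusted p = 0.00063). Both names were wholly below PF-Quie in the senescent libraries, by a wide gap. The B2_Mm names are the younger mouse B2 subfamilies, those that RNA polymerase III is known to transcribe under stress. B2_Mm2 had 327, 267 and 373 CPM in PF-nSene and 481, 451 and 434 CPM in PF-Quie (-0.50, edgeR adjusted p = 0.0019), and B2_Mm1t had 87.0, 71.8 and 99.1 CPM in PF-nSene and 125, 117 and 111 CPM in PF-Quie (-0.45, edgeR adjusted p = 0.0035). B2_Mm1a had 74.9, 63.4 and 84.4 CPM in PF-nSene and 92.4, 87.5 and 83.2 CPM in PF-Quie, with an overlap of the groups at PF-nSene library 3 (-0.24, standard error 0.104, edgeR adjusted p = 0.056). B2_Mm1a was the B2 name called higher under repeat-table scaling (0.25, edgeR adjusted p = 0.0012).

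All 4 B4 names were lower under gene-table scaling, with a median of -0.58, and none was called either way under repeat-table scaling. ID_B1, the most abundant with 34.3% of the family's counts, had 646, 561 and 705 CPM in PF-nSene and 889, 855 and 821 CPM in PF-Quie (-0.42, standard error 0.091, edgeR adjusted p = 0.0016). RSINE1, an old rodent element related to B4, had 529, 429 and 599 CPM in PF-nSene and 823, 772 and 740 CPM in PF-Quie (-0.59, standard error 0.110, edgeR adjusted p = 0.00068). B4A had 407, 336 and 474 CPM in PF-nSene and 638, 601 and 579 CPM in PF-Quie (-0.58, standard error 0.111, edgeR adjusted p = 0.00076). B4 itself was among the 3 lowest SINE names, with 212, 175 and 242 CPM in PF-nSene and 340, 321 and 307 CPM in PF-Quie (-0.62, standard error 0.109, edgeR adjusted p = 0.00047), next to B3A at -0.61. For all 4 the senescent libraries were wholly below the quiescent ones. With the 2 ribosomal RNA names left out of the repeat-table scaling, B4 was called lower as well, at -0.14, so that 11 SINE names were higher and 2 lower, where 54.2% of 1279 tested names were called, 28.1% higher and 26% lower.

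The 4 ID names ran from -0.22 for ID4 to -0.72 for ID on the log2 scale, and all 4 were lower under gene-table scaling. ID4, the most abundant with 44.0% of the family's counts, had 165, 146 and 177 CPM in PF-nSene and 194, 191 and 183 CPM in PF-Quie (-0.22, standard error 0.087, edgeR adjusted p = 0.04). Its groups did not overlap, but the call was lost without any one library except PF-nSene library 3 (edgeR adjusted p 0.059 to 0.12). The name ID4_ had 144, 124 and 156 CPM in PF-nSene and 185, 181 and 173 CPM in PF-Quie (-0.35, edgeR adjusted p = 0.0057). ID2 had 28.0, 23.5 and 30.4 CPM in PF-nSene and 37.1, 36.0 and 33.6 CPM in PF-Quie (-0.38, edgeR adjusted p = 0.007). The name ID, with 7.76% of the family's counts, had the lowest log2 fold change of all 32: 22.8, 20.3 and 26.5 CPM in PF-nSene and 40.5, 37.7 and 36.5 CPM in PF-Quie (-0.72, standard error 0.107, edgeR adjusted p = 2e-04). It was also the one SINE name called lower under repeat-table scaling (-0.22, edgeR adjusted p = 0.0039), where ID4 (0.28) and ID4_ (0.15) were called higher.

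Of the 4 names of MIR, the ancient family, 3 were lower under gene-table scaling (median -0.40) and 2 were higher under repeat-table scaling. MIRb, with 32.3% of the family's counts, had 229, 194 and 248 CPM in PF-nSene and 321, 310 and 296 CPM in PF-Quie (-0.47, standard error 0.095, edgeR adjusted p = 0.0012). MIRc had 190, 174 and 202 CPM in PF-nSene and 246, 236 and 231 CPM in PF-Quie (-0.33, edgeR adjusted p = 0.0035). The name MIR had 147, 120 and 166 CPM in PF-nSene and 226, 215 and 205 CPM in PF-Quie (-0.58, edgeR adjusted p = 0.00072). MIR3 stood apart from these 3, with 161, 148 and 170 CPM in PF-nSene and 180, 174 and 171 CPM in PF-Quie, groups that nearly touch without overlap (-0.13, standard error 0.081, edgeR adjusted p = 0.17). MIR3 (0.37, edgeR adjusted p = 0.00028) and MIRc (0.17, edgeR adjusted p = 0.028) were called higher under repeat-table scaling.

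The make-up of the SINE counts was then compared, with the SINE total of each library as its size, a scaling chosen after the data were seen. Relative to all SINE counts, 6 names were higher in PF-nSene, 7 were lower and 19 were not called. The same fit called 56.5% of 1284 tested repeat names, 24.7% higher and 31.8% lower. B1_Mus2 made up 6.33%, 6.86% and 6.52% of SINE counts in PF-nSene and 4.68%, 4.54% and 4.53% in PF-Quie (log2 fold change of the share 0.52, standard error 0.059, edgeR adjusted p = 3.6e-05). MIR3 (0.29), ID4 (0.20), B2_Mm1a (0.17), B1_Mus1 (0.16) and B1_Mm (0.16) also had a higher share. The 7 with a lower share were ID (-0.31, edgeR adjusted p = 0.00051), B4 (-0.22), B3A (-0.20), RSINE1 (-0.18), B4A (-0.17), MIR (-0.17) and B3 (-0.17). The other B2_Mm names, B2_Mm2 (-0.09) and B2_Mm1t (-0.04), were not called. The counts shrank to 3 higher and 3 lower without any one PF-Quie library.

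**Figure D3:**
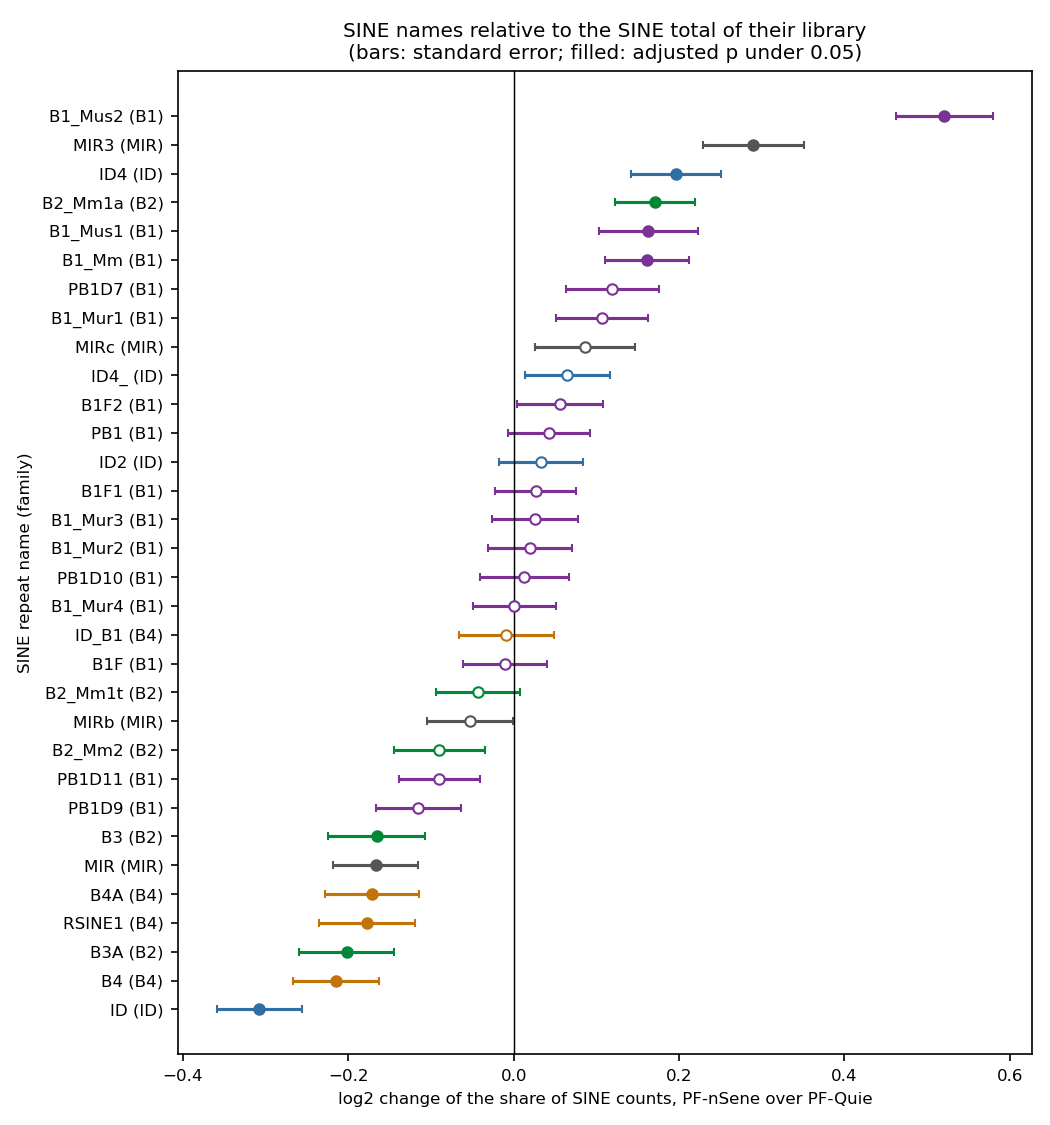
Log2 change of each name's share of SINE counts, PF-nSene over PF-Quie, with standard errors; filled points passed edgeR's test at an adjusted p under 0.05. B1_Mus2 lies at 0.52 and ID at -0.31, and the B4, B4A, RSINE1, B3 and B3A names lie together at the low end.

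By family, B1 took 45.3% ± 0.440 of SINE counts in PF-nSene and 41.8% ± 0.161 in PF-Quie, and ID took 4.37% ± 0.130 and 4.10% ± 0.0527 (SD, n = 3 each, PF-nSene first). B2 took 19.7% ± 0.547 in PF-nSene and 21.7% ± 0.164 in PF-Quie, and B4 took 21.8% ± 0.260 and 23.7% ± 0.0979. MIR took 8.83% ± 0.291 in PF-nSene and 8.65% ± 0.0516 in PF-Quie, a difference within the spread. Shares of one whole are tied to each other, so that a higher share of one family lowers the others.

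Ratios within a library do not depend on how libraries are scaled, and 9 were compared, each by exact two-sided permutation, for which p = 0.1 is the lowest value (0.129 after adjustment over the 9). B2 over B1 was 0.442, 0.418 and 0.448 in PF-nSene and 0.526, 0.517 and 0.516 in PF-Quie, with no overlap (log2 difference -0.25, exact permutation p = 0.1). Rodent SINEs over MIR were 10.3, 9.98 and 10.7 in PF-nSene and 10.6, 10.5 and 10.5 in PF-Quie, which overlapped (-0.03, exact permutation p = 0.4). MIR over L2, its LINE partner, was 1.53, 1.54 and 1.49 in PF-nSene and between 1.497 and 1.502 in all PF-Quie libraries, which overlapped as well (0.02, exact permutation p = 0.4). The most abundant name was then left out of each of B1, B2, B4, ID, MIR and L2. Both ratios reached the lowest possible p of 0.1 (exact permutation test), at -0.07 for rodent SINEs over MIR and 0.07 for MIR over L2. L2 itself had all 4 names called lower under gene-table scaling, with a median of -0.41.

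Against the other large repeat groups the SINE ratio turned on a few names. Rodent SINEs over L1, their LINE partner, were 0.373, 0.268 and 0.369 in PF-nSene and 0.541, 0.538 and 0.508 in PF-Quie (log2 difference -0.67, exact permutation p = 0.1). With the L1Md names, the young mouse L1 subfamilies, left out of L1, a choice made after the data were seen, the same ratio was 4.67, 4.66 and 4.83 in PF-nSene and 4.23, 4.24 and 4.30 in PF-Quie, now wholly higher in PF-nSene (0.15, exact permutation p = 0.1). Of 128 tested L1 names 109 were lower and 3 higher under gene-table scaling (median -0.66), although the L1 sum was higher by 0.25 on the log2 scale with the L1Md names and lower by a log2 difference of -0.57 without them. Rodent SINEs over LTR names were 1.96, 1.86 and 2.01 in PF-nSene and 2.28, 2.25 and 2.24 in PF-Quie (-0.22, exact permutation p = 0.1). The LTR names (336 of 517 tested lower, 30 higher, median -0.57) leave out MMVL30-int, the internal part of a VL30 retroelement, and with it counted the ratio was 0.693, 0.598 and 0.697 in PF-nSene and 1.82, 1.77 and 1.75 in PF-Quie (-1.43, exact permutation p = 0.1). Without MMVL30-int, the LTR difference shrank to -0.08 when the most abundant name of each rodent SINE family and of LTR was left out.

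**Figure D4:**
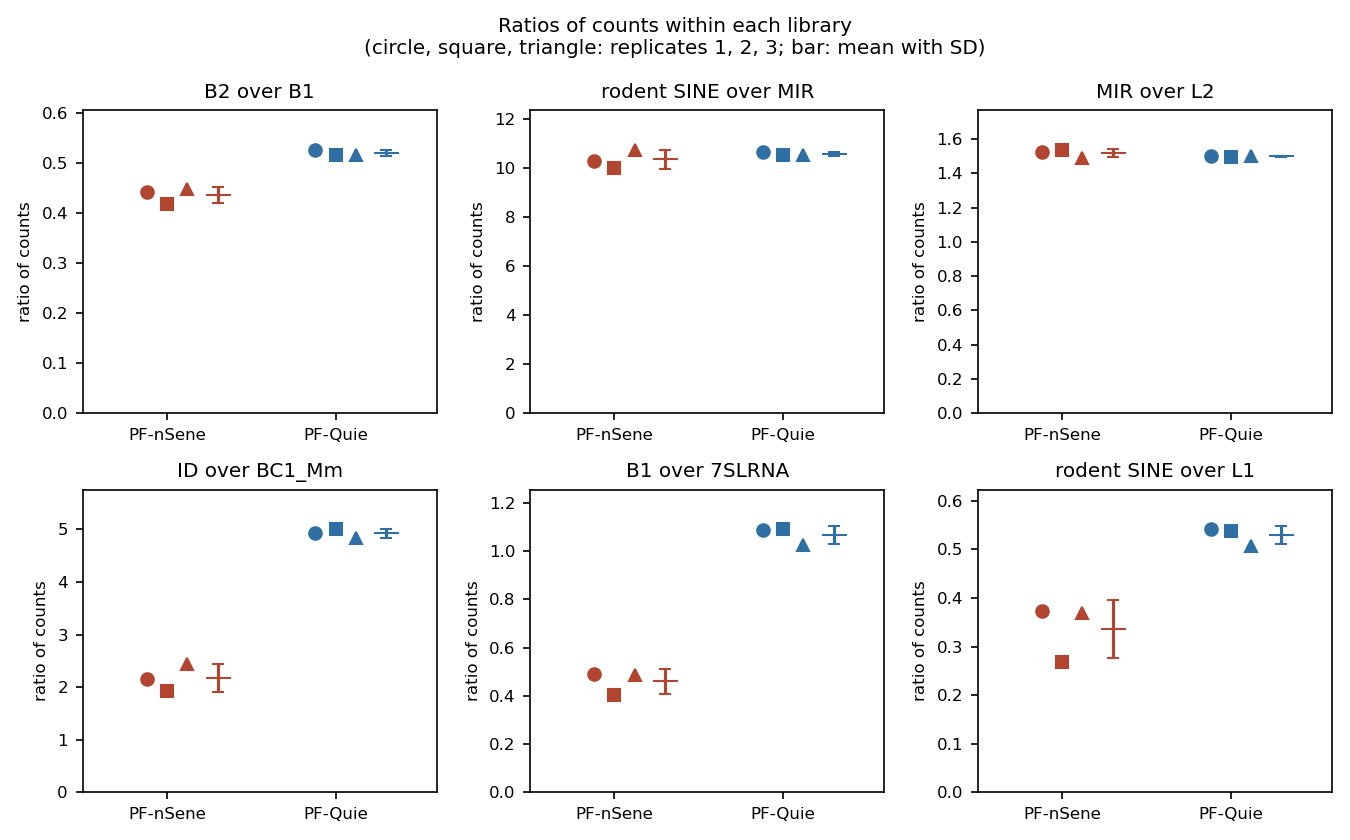
Ratio of summed counts within each library for 6 of the 9 pairs of repeat groups, PF-nSene left and PF-Quie right; circles, squares and triangles are replicates 1, 2 and 3, and the bar is the mean with its SD. The groups overlap for rodent SINEs over MIR and for MIR over L2 and lie apart in the other 4 panels, with ID over BC1_Mm and B1 over 7SLRNA the farthest apart.

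The repeat names BC1_Mm and 7SLRNA, which RepeatMasker gives to copies of the BC1 and 7SL RNA sequences, were higher in PF-nSene. The reads under BC1_Mm are not shown to be BC1 RNA: the Bc1 gene printed above held 3, 3 and 3 counts in PF-nSene and 2, 3 and 1 counts in PF-Quie in the gene table and did not pass the filter, far below BC1_Mm. BC1_Mm had 167, 163 and 159 CPM in PF-nSene and 92.7, 89.2 and 88.0 CPM in PF-Quie (log2 fold change 0.86, standard error 0.08, edgeR adjusted p = 5.4e-06), and it was higher under library totals (0.56) and repeat-table scaling (1.37) too. 7SLRNA had 7530, 7978 and 8532 CPM in PF-nSene and 4337, 4137 and 4257 CPM in PF-Quie (0.92, standard error 0.08, edgeR adjusted p = 3e-06), with 0.62 under library totals and 1.43 under repeat-table scaling. Every PF-nSene library was above every PF-Quie library for both. 7SK, a polymerase III RNA that holds back the elongation factor P-TEFb and has no SINE family here, had 387, 379 and 464 CPM in PF-nSene and 722, 754 and 746 CPM in PF-Quie (-0.85, standard error 0.09, edgeR adjusted p = 2e-05), lower under library totals (-1.15) and repeat-table scaling (-0.36) too. These 3 names were chosen after the data were seen. ID over BC1_Mm was 2.15, 1.93 and 2.45 in PF-nSene and 4.93, 5.00 and 4.84 in PF-Quie (log2 difference -1.19, exact permutation p = 0.1). B1 over 7SLRNA was 0.490, 0.402 and 0.487 in PF-nSene and 1.09, 1.09 and 1.02 in PF-Quie (-1.22, exact permutation p = 0.1). The sources used here do not give how reads that match both such a name and the SINE names were assigned, so the 2 sides of each ratio may share reads.

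Coding transcripts that carry a sequence like that of Bc1 had no shared direction. The Bc1 part before the A run (76 bases) matched GENCODE coding transcripts of 61 genes, 31 on the same strand and 31 on the opposite one, at a median identity of 84.4%. Of the 46 tested, 19 (41.3%) were higher and 18 (39.1%) lower in PF-nSene, with a median log2 fold change of 0.15. Over all 13075 tested coding genes 38.0% were higher and 37.5% lower, and over all 14065 tested genes 36.7% were higher and 37.8% lower, 74.5% in all. These are spliced transcripts, so SINE copies in introns are not covered.

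Genes of the RNA polymerase III machinery had no shared direction: of 30 tested, 11 were higher, 8 lower and 11 not called in edgeR, with a median log2 fold change of 0.03, where 36.7% of all tested genes were higher and 37.8% lower. Under library totals, which move each log2 fold change by -0.30, 6 were higher and 17 lower (median -0.27), where 73.8% of all 14065 tested genes were called, 21% higher and 52.9% lower (median -0.32). Polr3d (0.96) and Polr3g (0.67), which encode subunits of the enzyme, and Snapc1 (0.66), of the complex that acts at snRNA-type promoters, were among the highest. Polr3gl, the alternative to Polr3g in the enzyme, was lower (-0.62), as were Snapc5 (-1.39), Gtf3a (-0.44), the 5S RNA factor TFIIIA, and Brf1 (-0.36), a subunit of TFIIIB. Maf1, the repressor of polymerase III, was lower too (-0.50, standard error 0.057, edgeR adjusted p = 8.8e-06). Each of these 8 genes kept its direction and its call under library totals. Of 10 polymerase III transcripts listed, 5 were in the gene table and 2 were tested: Rmrp, the RNase MRP RNA, was higher (0.30, edgeR adjusted p = 0.03) and Rpph1, the RNase P RNA, was lower (-0.21, edgeR adjusted p = 0.041) with overlapping groups. The Rmrp call was lost under library totals (0.0061), and each of the 2 calls was lost without some single library.

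A list of 20 tested genes covered the signal recognition particle, other RNA-binding proteins and proteins that handle double-stranded RNA. Not all of these bind SINE RNA. Of the 20, 13 were higher and 5 lower (median 0.32), where 36.7% of all tested genes were higher and 37.8% lower. All tested genes of the particle were among the 13. Under library totals 6 were higher and 7 lower (median 0.02), where 21% of all tested genes were higher and 52.9% lower. Srp9 (0.68) and Srp14 (0.56) encode the pair that binds the part of 7SL RNA kept in B1, and Srp54b (0.55) and Srp19 (0.52) are further proteins of the signal recognition particle; all 4 were higher under library totals as well. Srp54b has near-identical copies and its counts are uncertain. Adar, the adenosine deaminase that edits double-stranded RNA, was higher (0.27, edgeR adjusted p = 0.0007), a call lost under library totals (-0.02). Ifih1 (-0.86), the sensor MDA5, Adarb1 (-0.45), another editing enzyme, Eif2ak2 (-0.34), the kinase PKR, and Ro60 (-0.28), which binds misfolded polymerase III RNAs, were lower under both. Dicer1 was not called (-0.02, edgeR adjusted p = 0.76).

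Of 23 tested genes on a chromatin silencing list, 2 were higher, 11 lower and 10 not called (median -0.13). Of all tested genes 36.7% were higher and 37.8% lower. The list also holds Ctcf (-0.41, lower) and Hsf1 (-0.13, not called), which are not silencing genes as such. Under library totals 1 was higher and 19 lower (median -0.43), where 21% of all tested genes were higher and 52.9% lower. Suv39h1 (-1.08) and Ehmt2 (-0.87), histone H3 lysine methyltransferases, and Dnmt1 (-0.61) and Uhrf1 (-0.61), which maintain DNA methylation, were the lowest. Suv39h1, Dnmt1 and Uhrf1 are also expressed with the cell cycle. The proliferation marker Mki67 had 12.0, 9.71 and 9.59 CPM in PF-nSene and 51.6, 55.0 and 51.1 CPM in PF-Quie (log2 fold change -2.33). Of the other listed senescence and cycle markers, Top2a was lower (-1.98), and Cdkn1a (1.14) and Mdm2 (0.95) were higher. Mki67 was thus expressed in the cells labelled quiescent. The part of the cell cycle in these values, and in the SINE values, was not tested. Suz12 (0.51), of the Polycomb complex PRC2, was higher, and Chd4 (0.31), of the complex with Adnp, was higher only with TMM scaling and not under library totals (0.01). Adnp, known to bind SINE copies in mouse cells, was not called (0.26, edgeR adjusted p = 0.4).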

How the data were processed

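Total RNA depleted of ribosomal RNA was sequenced as paired 100 bp reads from a directional kit, per the labels' protocols, in 3 PF-nSene and 3 PF-Quie libraries. As deposited, the 2 tables hold raw counts, one per gene symbol and one per RepeatMasker name; columns left unused numbered 0. The submitters' processing notes name mm10, edgeR 3.32.1 and limma 3.46.0 without a role; these sources do not give the aligner, the counter, the use of strand or how reads matching several places were counted. SINE names resemble each other, so reads may be shared among them.

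Tests ran in edgeR 4.0.16 (R 4.3.3) on the counts over the whole of each table: filterByExpr by group (minimum count 10), robust quasi-likelihood fit, Benjamini-Hochberg adjustment, threshold 0.05. Repeat names took the TMM-adjusted library sizes of the gene table. Sums and ratios were compared by exact two-sided permutation over libraries. The test was checked on simulated counts, drawn independently and with the same spread for all names. The library differences that all SINE names shared were not simulated. Of 50 repeat names changed at each size, it found 28% at 1.25-fold, 94% at 1.5-fold and 100% at 2-fold. It made 5 false calls among 166, so a name not called may still differ by a small amount. These rates need not hold for names that move together between libraries. Depth gives counting error only, since PCR reads lack molecular identifiers. Transcript matches used blastn 2.17.0 (e-value at most 1e-05).

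Members, lists and tests were chosen with earlier results of these data known. Named were the most abundant name per family, the 3 highest and 3 lowest, a fixed set of names, up to 4 genes per list and direction, and a few fixed genes; others were chosen after their values were seen. The SINE total as size, the ratios to BC1_Mm and 7SLRNA, and L1 without L1Md or LTR with MMVL30-int were added after seeing the data. Alternatives were other scalings and filters, DESeq2 1.42.0, limma-voom (limma 3.58.1), a block for the replicate number, and leaving out 1 library at a time. Some items are not reported here.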

Additional observations from a re-analysis of the deposited data

How the results depend on the processing

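Scaling decided the direction. With TMM factors of the repeat names, 12 SINE names were higher and 1 lower, and without the ribosomal RNA names there 11 and 2. The log2 fold changes under these 2 scalings, each positive where the gene-table value was negative, were 0.25 and 0.24 for B1_Mus1, 0.096 and 0.086 for PB1D10, 0.19 and 0.18 for B1_Mur1, 0.073 and 0.063 for B1F, 0.084 and 0.075 for B1_Mur4, 0.10 and 0.093 for B1_Mur2, 0.20 and 0.19 for PB1D7, 0.11 and 0.099 for B1_Mur3, 0.24 and 0.23 for B1_Mm, 0.11 and 0.10 for B1F1, 0.14 and 0.13 for B1F2, 0.13 and 0.12 for PB1, 0.040 and 0.031 for B2_Mm1t, 0.25 and 0.24 for B2_Mm1a, 0.074 and 0.065 for ID_B1, 0.28 and 0.27 for ID4, 0.15 and 0.14 for ID4_, 0.12 and 0.11 for ID2, 0.030 and 0.020 for MIRb, 0.17 and 0.16 for MIRc, and 0.37 and 0.36 for MIR3. The sums differed by 0.20 and 0.19 (B1), -0.056 and -0.066 (B2), -0.039 and -0.049 (B4), 0.18 and 0.17 (ID), 0.11 and 0.10 (MIR), and 0.083 and 0.073 (all SINE). Under library totals they were -0.60, -0.86, -0.84, -0.63, -0.69 and -0.72 in that order. There 6 polymerase III machinery genes were higher and 17 lower, and 0 polymerase III transcripts were higher. Of the list with the signal recognition particle and other RNA-binding proteins, 6 genes were higher and 7 lower. Of the silencing list, 1 gene was higher and 19 lower. The scalings differ by construction in what is taken as constant; which of them holds in these cells was not tested.

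The most abundant name was also left out of each SINE family and of L2 and LTR. Rodent SINEs over MIR were then -0.072, rodent SINEs over LTR -0.077 and MIR over L2 0.074, each with an exact permutation p of 0.1. The cause was not tested. Leaving out 1 library at a time gave 26 to 31 names lower and 0 to 1 higher (B1_Mus2, 0.18, without PF-nSene replicate 2), 3 to 9 names with a higher and 3 to 8 with a lower share of SINE counts, and 0 to 1 polymerase III transcripts in either direction. Each family sum kept its sign. Same-numbered libraries deviated together no more than the others (correlations 0.059, 0.028 and -0.059, against -0.157 to 0.126). Such correlations over repeat names cannot decide whether the numbers pair cultures or animals. With the replicate number as a block 29 SINE names were lower, ID4 was not called, B1_Mus1 and B2_Mm1a were, and 0 polymerase III transcripts were lower. DESeq2, limma-voom, RLE size factors, no filter and TMM without ribosomal rows changed no direction; RLE lost ID4, and limma-voom added B1_Mus1 and B2_Mm1a as lower. With 3 libraries a group, small differences between names could not be resolved, and the handling of reads that match several names, which could bear on them, is unknown.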
